A study of Mus musculus with 12 samples.

Results

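The mitochondrial carrier genes were taken from a table of gene expression in mouse heart ventricle. The set was every protein-coding gene named Slc25a with a number, without Slc25a20, together with Ucp1, Ucp2, Ucp3, Mpc1 and Mpc2. Such a name belonged to 51 genes. A filter, a value of 10 or more in 3 or more of the 12 libraries, kept 42 of them, and 13865 of the 51912 gene IDs in all. RNA sequencing had been done on total RNA of untreated, freshly taken ventricle in 4 groups of 3 libraries each, namely females and males labelled WT and females and males labelled LCHADD. The last label abbreviates deficiency of long-chain 3-hydroxyacyl-CoA dehydrogenase, an enzyme of the beta-oxidation of long-chain fatty acids in the mitochondrial matrix. The labels give the genotype only as LCHADD or WT and name no allele, strain or age. They give the sex under a tag for the cell line, and the libraries are of tissue, in which fewer cells of a type and less RNA per cell cannot be told apart. No label states that libraries of a group came from separate animals, so p-values measure the spread between these samples, which may be technical.

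Mitochondrial carriers are proteins of the inner mitochondrial membrane that pass small molecules between the cytosol and the matrix, most of them by exchanging a substrate on one side for a substrate on the other. In heart muscle the exchange of ADP for ATP and the import of phosphate feed ATP synthase, while the carriers of aspartate, glutamate, malate and oxoglutarate move reducing equivalents into the matrix. The uncoupling proteins belong to the same family. Mpc1 and Mpc2 are no members of it by sequence, and form together the carrier that brings pyruvate into the matrix.

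The deposited values are reads divided by a size factor for each library, called normalised reads here, and the libraries held 15.6 to 23.2 M reads in WT and 16.7 to 19.0 M in LCHADD. WT female 3 stood apart from the other WT libraries in several carrier genes, Ucp3 among them, and LCHADD female 2 had the lowest summed level of 7 cardiomyocyte markers. Several results that rest on either library are also given without it. Reads of mitochondrially encoded genes made up 27.5 to 32.7% of the reads in WT and 31.0 to 37.9% in LCHADD. Genotype differences are log2(value + 1) in LCHADD minus WT with the standard error (SE) of a limma fit over all 12 libraries. A gene is said to have passed where its p, adjusted by Benjamini and Hochberg's method for the 13865 genes, was under 0.05. The labelled ventricle was checked with defining markers: the 7 cardiomyocyte markers were at 41056 or more in every library, and 4 atrial markers together summed to at most 285.

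Among the 42 carriers a few genes dominated. Per kilobase of exon, Slc25a4, the ADP/ATP carrier of heart and skeletal muscle, stood at 42541 normalised reads in WT, far above Slc25a11 at 5518, Slc25a3 at 4349 and Slc25a5 at 2644. The level of Slc25a34 was 1489 per kilobase and that of Slc25a39 was 998, while Slc25a53 was lowest at 2.91. In LCHADD Slc25a4 was followed by Slc25a5 with 5148 per kilobase, before Slc25a3 with 3933 and Slc25a11 with 3913. At the edge of the filter, Slc25a53 passed with 11.4 to 29.1 normalised reads, and Slc25a18 failed with at most 8.45. The order of Slc25a3 and Slc25a11 in LCHADD is not separated by their spread. All 42 genes together took 1.31 to 1.35% of the reads of nuclear genes in the WT libraries and 1.13 to 1.25% in the LCHADD libraries, with no overlap. Without Slc25a4 their summed level was 71024 to 74137 in WT and 67811 to 74821 in LCHADD, so that these ranges overlapped.

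**Figure D1:**
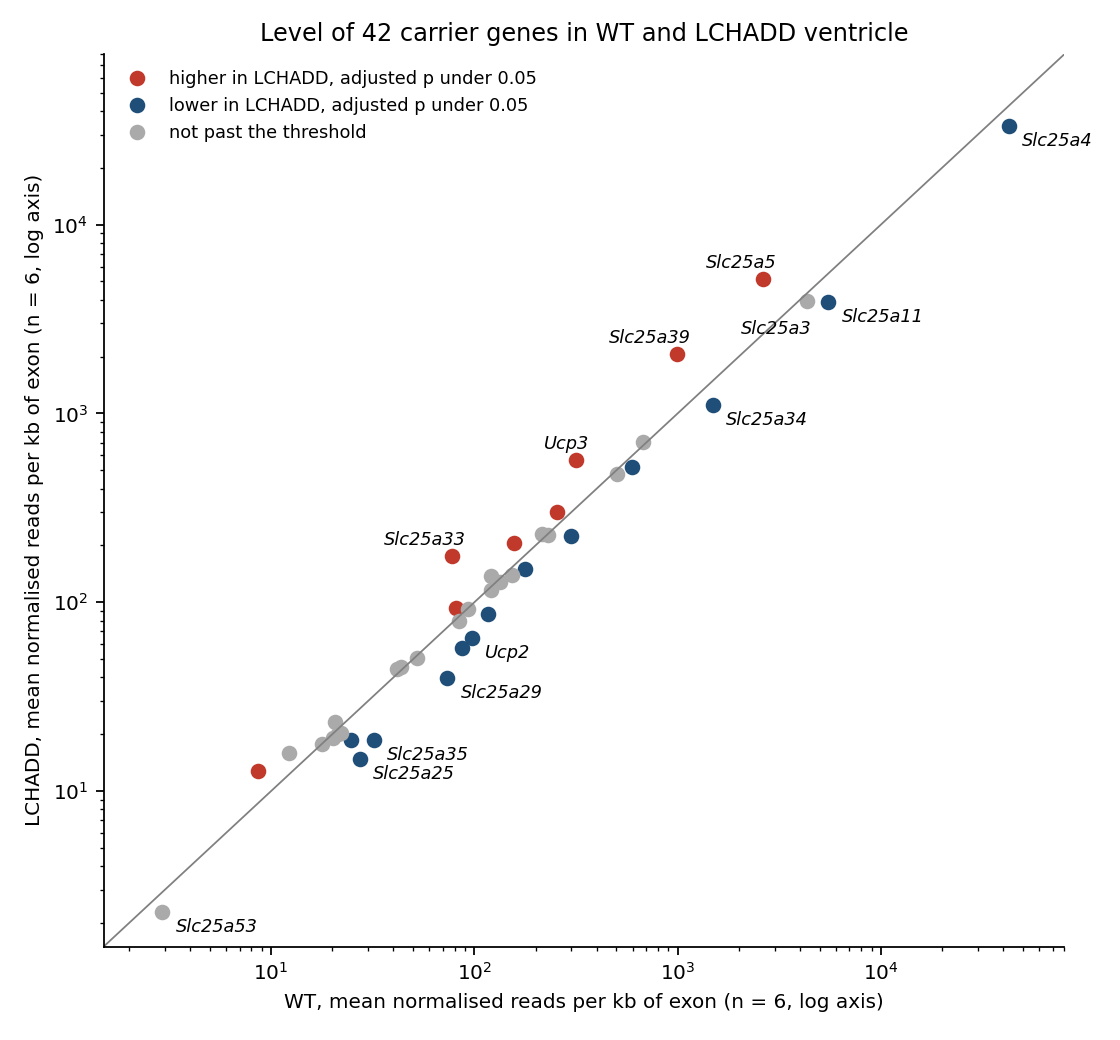
Mean normalised reads per kilobase of exon of the 42 carrier genes in WT (horizontal, log axis) and LCHADD (vertical, log axis), n = 6 libraries each; the line marks equal levels and colours mark the test of the mean of both sexes. Slc25a4 lies at the top right at 42541 in WT and 33319 in LCHADD, and Slc25a5 and Slc25a39 lie above the line.

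In the mean of both sexes 21 of the 42 carrier genes changed with the LCHADD genotype, 8 upward and 13 downward by limma, which is 50% of them. Of all genes tested 40.8% passed in this comparison, 20.3% higher and 20.6% lower. The carriers called upward make up 19.0% of the 42 and those called downward 31.0%, and no test was made of these shares. In females 17 carriers passed (40.5%), 4 higher and 13 lower, where 33.8% of all genes passed, 16.7% higher and 17.2% lower. In males 10 passed (23.8%), 3 higher and 7 lower, where 15.5% of all genes passed, 7.71% higher and 7.77% lower. Without WT male 1, WT male 3 or LCHADD male 1 the male count was 6. Without LCHADD female 2 it was 16, where Slc25a10, Slc25a22, Slc25a34, Slc25a35, Slc25a42 and Ucp3 passed as well. With each sex fitted alone, 14 carriers passed in females and 17 in males, where 3436 and 3342 of all genes passed. The order of the sexes in these counts thus depended on the fit. The median change over the 42 genes was -0.05 in females and -0.08 in males, with -0.07 for the mean of both sexes, and that of all genes tested was 0.00 in each. The 4 largest rises in the mean were 0.95 to 1.12 and the 4 largest falls -0.65 to -0.93.

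The genes called in females and again in males were Slc25a5, Slc25a33 and Slc25a39, which were higher, and Slc25a4, Slc25a11, Slc25a25, Slc25a26, Slc25a29 and Ucp2, which were lower. Slc25a23 passed in males, and for both sexes averaged, but not in females. The sign of the difference was the same in each sex for 34 of the 42 carriers and for 78% of all genes. The 3 LCHADD libraries and the 3 WT libraries did not overlap for 22 of the 42 genes in females and for 24 in males, beside 44.5% and 38.9% of all genes. Over all 6 libraries a genotype, 10 carriers did not overlap, 4 above and 6 below WT, beside 19.7% of all genes.

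**Figure D2:**
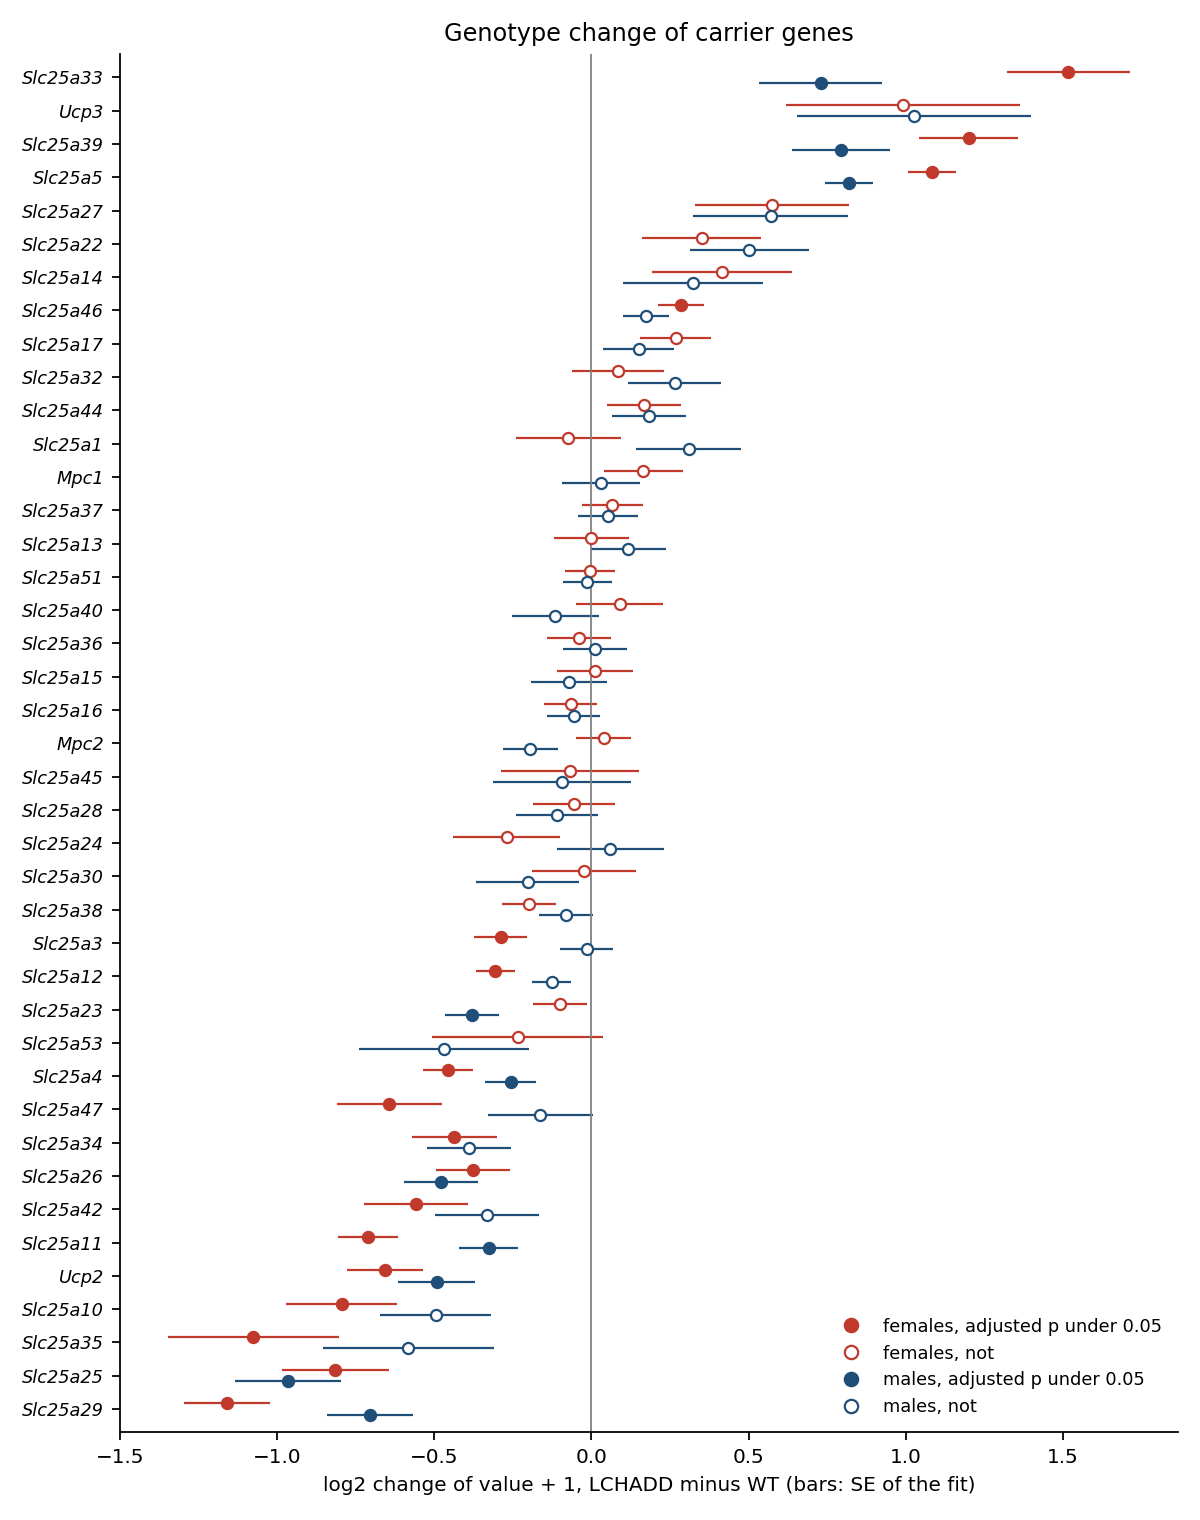
Log2 change of 41 of the 42 carrier genes, LCHADD minus WT, in females (red) and males (blue), with the SE of the limma fit; filled circles passed at adjusted p under 0.05 and genes are ordered by the mean of both sexes. Slc25a33, Ucp3, Slc25a39 and Slc25a5 are at the top, at mean changes of 1.12, 1.01, 1.00 and 0.95, and Slc25a29 is at the bottom at -0.93.

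The carriers that trade ADP for ATP moved in opposite directions. Slc25a4 (ENSMUSG00000031633, chromosome 8) encodes the carrier isoform of heart and skeletal muscle, and Slc25a5 (ENSMUSG00000016319, chromosome X) the isoform found in most tissues. Slc25a4 measured 100034, 104348 and 98365 normalised reads in the WT females and 70777, 70834 and 79391 in the LCHADD females. Its values were 99697, 98492 and 99661 in the WT males and 79623, 85183 and 84593 in the LCHADD males. Every LCHADD library lay below every WT library, and the means were 100100 ± 2191 in WT and 78400.2 ± 6359 in LCHADD (SD, n = 6 each). Slc25a4 fell by 0.36 on the log2 scale in the mean of both sexes (SE 0.06, limma adjusted p = 0.00016), with changes of -0.46 in females and -0.26 in males.

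Slc25a5 measured 4526, 4558 and 4163 normalised reads in the WT females and 9701, 9685 and 8705 in the LCHADD females. The male libraries gave 4192, 4245 and 4429 in the WT males and 7791, 6844 and 8117 in the LCHADD males. The LCHADD libraries were all above the WT libraries, by a factor of 2.12 in females and 1.76 in males. The mean log2 change was 0.95 ± 0.05 (limma adjusted p = 9e-09), the smallest adjusted p of the 42 carriers. Per kilobase of exon, Slc25a5 supplied 5.67 to 6.08% of the summed level of both isoforms in WT, 13.6 to 16.4% in LCHADD females and 10.3 to 12.3% in LCHADD males. The normalised reads of both genes together were 102528 to 108907 in WT and 80478 to 92710.2 in LCHADD, so the sum was lower in every LCHADD library. The isoforms are close copies of each other and Slc25a5 has processed pseudogenes, and how reads shared between copies were counted is not given in the sources used here.

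In males the call of Slc25a4 was near the threshold (limma adjusted p = 0.042). It was lost without the filter on low values (adjusted p = 0.25), with a replicate block (0.077) and on leaving out WT female 1, WT female 2 or any library of the WT or LCHADD males (0.061 to 0.16), while the change stayed between -0.23 and -0.27. These were 10 of 23 alternatives, and the others kept the call. The summed level of the 7 cardiomyocyte markers moved in the same direction: it was 1048190 to 1138700 in WT, 584117 to 856211 in LCHADD females and 879989 to 1015210 in LCHADD males. Per 1000 normalised reads of these markers, Slc25a4 was at 87.6 to 93.8 in WT and 83.9 to 121 in LCHADD, and these ranges overlap. The part of the markers in the fall was not tested. Slc25a5 rose while they fell.

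The 250 bases upstream of the RefSeq start of both isoforms are shown because their transcripts moved apart (GRCm38.p6; Slc25a4 at chr8:46211063-46211312, minus strand; Slc25a5 at chrX:36795347-36795596, plus strand; each 5′ to 3′ on the strand of its gene). Capitals would mark matches to the motifs TGATGNAA (C/EBP-ATF element), TNAAGGTCA (estrogen-related receptor element), AGGTCA (nuclear receptor core site, contained in the previous motif), CACGTG (E-box) or GCATGCGC (core of the nuclear respiratory factor site) on either strand, and neither window holds one.
Slc25a4: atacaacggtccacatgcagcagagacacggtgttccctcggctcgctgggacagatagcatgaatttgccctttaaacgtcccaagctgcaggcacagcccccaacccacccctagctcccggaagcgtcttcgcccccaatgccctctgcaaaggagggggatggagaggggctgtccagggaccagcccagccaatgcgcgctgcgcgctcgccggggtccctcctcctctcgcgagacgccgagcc
Slc25a5: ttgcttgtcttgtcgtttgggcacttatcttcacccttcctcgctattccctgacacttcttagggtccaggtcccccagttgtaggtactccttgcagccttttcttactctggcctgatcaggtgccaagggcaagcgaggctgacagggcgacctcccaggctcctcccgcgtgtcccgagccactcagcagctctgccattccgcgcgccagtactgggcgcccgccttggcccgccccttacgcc

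Slc25a3, the carrier that imports the phosphate used by ATP synthase, differed less. It measured 25208, 25484 and 22317 normalised reads in the WT females and 19276, 18178 and 22438 in the LCHADD females. The male libraries stood at 24573, 23938 and 23312 in the WT males and 23174, 24334 and 23555 in the LCHADD males. LCHADD females 1 and 2 were below all WT females and LCHADD female 3 lay within them, and the male groups overlapped. Its change was -0.29 ± 0.08 in females (limma adjusted p = 0.015), -0.02 ± 0.08 in males and, for the mean, -0.15 ± 0.06 (0.051, 95% interval -0.28 to -0.03). The mean passed under 7 alternatives, among them edgeR (0.047) and DESeq2 (0.044), and the call in females was lost without WT female 1, WT female 2 or LCHADD female 1 (0.051 to 0.066) and when only the female libraries were fitted (0.076). Per 1000 normalised reads of the cardiomyocyte markers Slc25a3 was higher in LCHADD, at 24.0 to 31.1 against 21.3 to 22.6 in WT without overlap, and this ratio was not tested.

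Among the calcium-regulated carriers that exchange ATP-Mg for phosphate and so set the adenine nucleotide pool of the matrix, Slc25a25 fell most. It measured 188, 223 and 241 normalised reads in the WT females and 91.9, 133 and 150 in the LCHADD females. The male libraries held 200.2, 238 and 199.8 in the WT males and 114, 112 and 99.0 in the LCHADD males. No LCHADD library reached a WT library of either sex, and the mean change was -0.89 ± 0.12 (limma adjusted p = 3.4e-05). Exons of Slc25a25 overlap Naif1 on the opposite strand, and the use of strand in counting is not given in the sources used here. Slc25a23 had a difference of -0.38 in males (limma adjusted p = 0.0074) and -0.10 in females (0.39), and Slc25a24 stood at -0.11 ± 0.12 and did not pass. Slc25a31, the isoform of the ADP/ATP carrier known from testis, had at most 6.56 normalised reads in any library, and Slc25a41, a relative of Slc25a25, had none.

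Carriers of the malate-aspartate shuttle, which brings reducing equivalents of cytosolic NADH into mitochondria, were lower or not detectably changed. Slc25a11, which exchanges oxoglutarate for malate, measured 11632, 11644 and 10823 normalised reads in the WT females and 7042, 5889 and 8065 in the LCHADD females. In males it had 12458, 11482 and 12153 in the WT males and 9003, 10019.9 and 9753 in the LCHADD males. All 6 LCHADD libraries were below all 6 WT libraries, and the mean change was -0.52 ± 0.07 (limma adjusted p = 2.3e-05), with -0.71 in females and -0.33 in males. The male call was lost without the filter (0.056) and without WT male 1, 2 or 3 or LCHADD male 1 or 3 (0.050 to 0.12). These were 6 of 23 alternatives, and the others kept the call. Exons of Slc25a11 overlap Rnf167 on the opposite strand. Per 1000 normalised reads of the cardiomyocyte markers, Slc25a11 was at 10.3 in all WT females and at 9.38 to 10.1 in the LCHADD females, which do not overlap. In males it was at 10.8 to 11.1 in WT and 9.66 to 11.1 in LCHADD, which overlap, and the part of the markers was not tested.

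Slc25a12 and Slc25a13 encode the aspartate/glutamate exchangers, of which Slc25a12 is the form of heart, muscle and brain and Slc25a13 that of liver. Slc25a12 measured 4285, 4308 and 4176 normalised reads in the WT females and 3463, 3253 and 3620.1 in the LCHADD females. It had 4561, 4462 and 4588 in the WT males and 4066, 4275 and 4134 in the LCHADD males. The groups did not overlap in either sex, and the mean change was -0.22 ± 0.04 (limma adjusted p = 0.0011), passing in females (adjusted p = 0.0015) and not in males (0.19). Per 1000 normalised reads of the cardiomyocyte markers Slc25a12 was higher in LCHADD, at 4.21 to 5.57 against 3.80 to 4.20 in WT, and this ratio was not tested.

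Slc25a13 measured 2528, 2736 and 2216 normalised reads in the WT females and 2743, 1933 and 2885 in the LCHADD females. In males the values were 2612, 2674 and 2648 in the WT males and 2831, 2868 and 2906 in the LCHADD males. LCHADD female 2 was the lowest library of all, and the other 5 LCHADD libraries were above every WT library. The mean change was 0.06 ± 0.08 and did not pass (limma adjusted p = 0.61, 95% interval -0.12 to 0.24), and without LCHADD female 2 it was 0.15 and passed (0.030). The ratio of normalised reads of Slc25a12 to Slc25a13 was 1.57 to 1.88 in WT and 1.25 to 1.68 in LCHADD, which overlap. Its log2 change was -0.27 (exact permutation test within sex, adjusted p = 0.0140). The exons of Slc25a12 are longer, at 7342 against 3798 bases. Per kilobase of exon the mean ratio was 0.888 in WT and 0.737 in LCHADD, with Slc25a12 below Slc25a13.

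Of 6 enzymes listed for the malate-aspartate shuttle and for citrate, 1 rose and 3 fell in the mean of both sexes by limma, where 40.8% of all genes passed. Got2, the mitochondrial aspartate aminotransferase, fell by 0.37 on the log2 scale (adjusted p = 1.8e-05), and Got1, its cytosolic counterpart, rose by 0.34 (adjusted p = 0.00061). Mdh1, the cytosolic malate dehydrogenase, changed by -0.26 (adjusted p = 0.00083). In the glycerol phosphate shuttle, the other route for cytosolic NADH, Gpd1 rose by 0.74 (limma adjusted p = 0.00023), and the other two genes listed, Gpd1l and Gpd2, did not pass in the mean, at -0.17 and -0.15. Gpd1l passed in females (-0.36, adjusted p = 0.036).

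Slc25a10, which exchanges malate or succinate for phosphate, measured 275, 294 and 245 normalised reads in the WT females and 174, 108 and 201 in the LCHADD females. The male libraries had 361, 312 and 323 in the WT males and 215, 249.6 and 241 in the LCHADD males. LCHADD libraries lay below WT libraries in each sex, and LCHADD female 2 was lowest. Its change was -0.65 ± 0.13 in the mean (limma adjusted p = 0.00079), and in males it did not pass (-0.50, 0.072) unless DESeq2 was used (0.032), LCHADD female 2 or 3 was left out (0.0030 and 0.031) or only male libraries were fitted (0.0025). The citrate carrier Slc25a1 had a log2 difference of 0.12 ± 0.12 and did not pass. Slc25a21, which carries oxodicarboxylates, held 12 reads over all libraries and failed the filter.

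The subunits of the pyruvate carrier showed no change past the threshold. Mpc1 measured 401, 438 and 388 normalised reads in the WT females and 465, 387 and 533 in the LCHADD females. Its male libraries stood at 465, 581 and 429.8 in the WT males and 497, 507 and 490.5 in the LCHADD males. Mpc2 had 3875, 3675 and 3142 normalised reads in the WT females and 3689.6, 3333 and 3943 in the LCHADD females. The males gave 3768, 4052 and 3721 in the WT males and 3244, 3597 and 3248 in the LCHADD males for this subunit. Values of the genotypes overlapped in females for both subunits and in males for Mpc1, while each LCHADD male was below each WT male for Mpc2. The mean changes were 0.10 ± 0.09 for Mpc1 (limma adjusted p = 0.4, 95% interval -0.09 to 0.29) and -0.08 ± 0.06 for Mpc2 (0.34, -0.21 to 0.05). In males Mpc2 passed when LCHADD female 2 and WT female 3 were left out together (0.033) or when only male libraries were fitted (0.034), at the same change of -0.19.

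Among the other amino acid carriers Slc25a29, which carries basic amino acids, had the largest fall of any carrier in females and in the mean of both sexes, while in males that of Slc25a25 was larger (-0.97). Slc25a29 measured 188, 153 and 174 normalised reads in the WT females and 80.9, 78.6 and 68.7 in the LCHADD females. The male libraries gave 243, 199 and 196 in the WT males and 124, 139 and 126 in the LCHADD males. LCHADD was below WT in every library of either sex, the LCHADD females lowest. The change was -1.16 ± 0.14 in females, -0.70 ± 0.14 in males and, for the mean, -0.93 ± 0.10 (limma adjusted p = 2.9e-06).

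Slc25a22, a glutamate carrier, measured 772, 787 and 1436 normalised reads in the WT females and 1012, 1399 and 1278 in the LCHADD females. It had 885, 749.7 and 978 in the WT males and 1218, 1302 and 1164 in the LCHADD males. WT female 3 was the highest library of all, and the other WT libraries were below every LCHADD library. The mean change was 0.43 ± 0.13 (limma adjusted p = 0.019) and passed in neither sex (0.17 in females, 0.088 in males). Without WT female 3 it passed in females at 0.64 (0.0030) and in males at 0.50 (0.013), and without WT female 1, WT female 2 or WT male 2 the mean did not pass (0.055 to 0.057). The male change also passed without LCHADD female 2 (0.035) and in a fit of the male libraries alone (0.00038). Its relative Slc25a18 held 35 reads over all libraries and failed the filter, as did Slc25a2, a carrier of ornithine.

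The remaining amino acid carriers did not pass in the mean by limma. Slc25a15, the ornithine carrier of the urea cycle, stood at a log2 difference of -0.03 ± 0.09. Slc25a38, a glycine carrier needed for haem synthesis, stood at -0.14 ± 0.06, and Slc25a44, a carrier of branched-chain amino acids, at 0.17 ± 0.08. Slc25a44 passed in the mean without LCHADD female 3 (0.23, adjusted p = 0.021).

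Of 8 carriers of nucleotides and cofactors, 2 rose and 2 fell in the mean of both sexes, where 40.8% of all genes passed. Slc25a33, a pyrimidine nucleotide carrier that supplies the matrix with precursors for mitochondrial DNA and RNA, had the largest rise of any carrier in females and in the mean of both sexes. In males the changes of Ucp3, Slc25a5 and Slc25a39 were larger, and without WT female 3 the mean change of Ucp3 was larger too, at 1.33 against 1.11. Slc25a33 measured 112, 169 and 128 normalised reads in the WT females and 304, 526 and 361 in the LCHADD females. The male libraries gave 150.4, 174 and 146 in the WT males and 304, 215 and 267 in the LCHADD males. The lowest LCHADD library was above the highest WT library, with LCHADD female 2 highest. The rise was 1.52 ± 0.20 in females, 0.73 ± 0.20 in males and, for the mean, 1.12 ± 0.14 (limma adjusted p = 1.6e-05). In males the call was lost without WT male 1, WT male 3, LCHADD male 1 or LCHADD male 3 (0.065 to 0.10).

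Slc25a36, the other pyrimidine nucleotide carrier, had a log2 difference of -0.01 ± 0.07 and did not pass. The ratio of Slc25a33 to Slc25a36 was 0.130 to 0.223 in WT and 0.232 to 0.596 in LCHADD (log2 change 1.14, exact permutation test within sex, adjusted p = 0.0117). Reads of mitochondrially encoded genes, given above, were higher in LCHADD in each sex, at 27.5 to 28.3% against 31.0 to 37.9% in females and 29.3 to 32.7% against 34.4 to 36.1% in males. Whether that share is related to Slc25a33 was not tested.

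The promoter window of Slc25a33 is shown beside its rise (RefSeq, GRCm38.p6, chr4:149774268-149774517, minus strand, 5′ to 3′). Capitals mark its E-box, CACGTG, at position -8 counted from -1, the last base before the annotated start.
Slc25a33: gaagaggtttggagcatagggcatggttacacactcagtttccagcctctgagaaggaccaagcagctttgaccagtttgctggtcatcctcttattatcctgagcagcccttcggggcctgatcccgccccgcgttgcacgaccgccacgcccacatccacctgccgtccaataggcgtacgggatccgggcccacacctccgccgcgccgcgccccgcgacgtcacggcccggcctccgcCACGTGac

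Slc25a26, which imports S-adenosylmethionine, the methyl donor, measured 513, 533 and 562 normalised reads in the WT females and 373, 482 and 389.8 in the LCHADD females. The male libraries held 595, 649 and 507 in the WT males and 396, 393 and 463 in the LCHADD males. LCHADD was below WT throughout, with a mean change of -0.43 ± 0.08 (limma adjusted p = 0.00079). The call in females was lost under scaling by nuclear reads (0.064) and without WT female 2 or 3 or LCHADD female 1 or 3 (0.053 to 0.092), and the call in males without WT male 1 or 2 or LCHADD male 1 (0.050 to 0.064). Its exons overlap Lrig1 on the opposite strand. Slc25a42, a carrier of coenzyme A, measured 1629, 1508 and 1989 normalised reads in the WT females and 1231, 839.8 and 1479 in the LCHADD females. The male values were 2074, 1780.5 and 1814 in the WT males and 1282, 1686 and 1551 in the LCHADD males. LCHADD female 2 was lowest and the genotypes did not overlap within a sex. Slc25a42 fell by 0.45 on the log2 scale in the mean (limma adjusted p = 0.0071). In females it did not pass without WT female 3 (-0.44, 0.087) or when only female libraries were fitted (0.070). Without WT female 3 and LCHADD female 2 together the female change was -0.22 (0.19). In males it did not pass (-0.33, 0.20), but it did without LCHADD female 2 (0.032) and in a fit of the male libraries alone (0.010).

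Slc25a17, a carrier of the peroxisomal membrane for coenzyme A and related cofactors, measured 247, 239 and 207 normalised reads in the WT females and 265, 297 and 271 in the LCHADD females. The male libraries had 240.0, 211 and 236 in the WT males and 250.1, 235 and 279 in the LCHADD males. LCHADD females were above WT females and the male groups overlapped. The mean change of 0.21 ± 0.08 passed narrowly (limma adjusted p = 0.047) and did not pass in 16 of 22 alternatives (0.050 to 0.18), edgeR and DESeq2 included. Slc25a32, which carries flavin or folate, and Slc25a51, which carries NAD, did not pass, at 0.17 ± 0.10 and -0.01 ± 0.06.

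Of 4 carriers of iron or glutathione only Slc25a39, which imports glutathione, passed in any of the comparisons. It measured 2708, 2742 and 3009 normalised reads in the WT females and 6647, 8609 and 4732 in the LCHADD females. The male libraries gave 2684, 2568 and 2789.9 in the WT males and 4989.7, 3941 and 5107 in the LCHADD males. All LCHADD libraries were above all WT libraries, LCHADD female 2 the highest, and the means were 2750.3 ± 147 in WT and 5671 ± 1688 in LCHADD (SD, n = 6 each). The rise was 1.20 ± 0.16 in females, 0.79 ± 0.16 in males and, for the mean, 1.00 ± 0.11 (limma adjusted p = 5.5e-06). Over 22 alternatives the mean change ranged from 0.89 to 1.11 and passed in each.

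Slc25a40, a close relative of Slc25a39, had a log2 difference of -0.01 ± 0.10 and did not pass (95% interval -0.22 to 0.20). The ratio of Slc25a39 to Slc25a40 was 14.2 to 22.7 in WT and 23.9 to 59.9 in LCHADD (log2 change 1.01, exact permutation test within sex, adjusted p = 0.0117). The iron importers of mitochondria, Slc25a37 and Slc25a28, had log2 differences of 0.06 ± 0.07 and -0.08 ± 0.09 and did not pass. Slc25a37 is known from red cell precursors, and the 4 erythroid markers that could be tested, of 6 listed, were all lower in LCHADD in each sex. Their summed level, over all 6, was 6627 to 11830 in WT and 1794.5 to 4286 in LCHADD, while Slc25a37 stood at 263 ± 11.4 in WT and 274 ± 10.9 in LCHADD (SD, n = 6 each).

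The window upstream of Slc25a39 is shown for the same reason (RefSeq, GRCm38.p6, chr11:102407518-102407767, minus strand, 5′ to 3′). Capitals mark TGACCT, the nuclear receptor core site AGGTCA read on the opposite strand.
Slc25a39: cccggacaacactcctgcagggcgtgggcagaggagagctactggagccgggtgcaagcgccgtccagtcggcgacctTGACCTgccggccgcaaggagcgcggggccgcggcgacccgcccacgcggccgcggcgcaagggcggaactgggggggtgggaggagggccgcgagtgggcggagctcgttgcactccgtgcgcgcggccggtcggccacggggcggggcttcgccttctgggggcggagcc

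Ucp3, the uncoupling protein of muscle and heart whose transcript is known to respond to fatty acids, measured 610.4, 583 and 2286 normalised reads in the WT females and 1959.6, 1368 and 2387 in the LCHADD females. The male libraries gave 1014, 704 and 745 in the WT males and 1657, 1773 and 1532 in the LCHADD males. In males every LCHADD library was above every WT library. In females WT female 3 lay near the highest LCHADD library, and the other two WT females were below all LCHADD libraries. The change was 0.99 ± 0.37 in females (limma adjusted p = 0.051), 1.03 ± 0.37 in males (0.075) and, for the mean, 1.01 ± 0.26 (0.0065). Ucp3 therefore passed in the mean and in neither sex. The female call was gained with a replicate block (0.041), under scaling by nuclear reads (0.040) and with 5 in place of 1 as the added value (0.050). Without WT female 3 the change was 1.64 in females (4.5e-05) and 1.03 in males (0.0015), and in a fit of the male libraries alone the male change passed as well (1e-06). Without LCHADD female 2 it passed in females (1.21, 0.014) and in males (0.025).

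Ucp2, the uncoupling protein relative of many tissues and of immune cells, moved the other way. It measured 905, 708 and 703 normalised reads in the WT females and 492, 474 and 492 in the LCHADD females. The male libraries held 529.9, 529 and 695 in the WT males and 405, 384 and 449.5 in the LCHADD males. LCHADD was below WT in each sex without overlap, and WT female 1 was highest. Ucp2 fell by 0.57 on the log2 scale in the mean (limma adjusted p = 8.9e-05), with -0.66 in females and -0.49 in males, where the call was lost without WT male 3 (0.074) or LCHADD male 2 (0.052). None of 5 macrophage markers passed in the mean, 2 were higher in females (Adgre1 at 0.61 and Cd68 at 0.66), and their summed level was 988 to 1383 in WT and 1038 to 1456 in LCHADD. Of all genes tested, 20.6% passed as lower in the mean, 17.2% in females and 7.77% in males. Of 5 endothelial markers 4 passed as lower in the mean and 3 in each sex. The summed level of the 5 was 9064 to 10109.8 in WT and 7247 to 8279 in LCHADD. All 5 fibroblast markers passed as lower in the mean and in females, and 2 in males. Their summed level was 7857 to 9375 in WT and 5512 to 7059 in LCHADD. The part of these cells in the fall of Ucp2 was not tested. The ratio of Ucp3 to Ucp2 was 0.675 to 3.25 in WT and 2.89 to 4.85 in LCHADD, overlapping through WT female 3 (log2 change 1.58, exact permutation test within sex, adjusted p = 0.0140).

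Ucp1, the uncoupling protein of brown fat, was not detectable at this depth in most libraries. It had 0 reads in all 6 WT libraries, LCHADD females 1 and 2 and LCHADD males 1 and 2, 3 reads in LCHADD female 3 (3.17 normalised reads) and 1 read in LCHADD male 3 (1.14 normalised reads). A count of 0 allows up to 3 reads a library, so no fold is given, and these limits cover counting error only. Of 6 adipocyte markers 4 failed the filter. The summed level of all 6 was 304 to 397 in WT and 409 to 541 in LCHADD, most of it Cidea. The 2 that were tested moved apart in the mean by limma: Cidea rose by 0.50 (adjusted p = 0.00027), and Cfd had a change of -1.77 (0.024), which was -2.81 in females (0.015). No listed marker of adipocytes was at 0 in every library.

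Slc25a27, a relative of the uncoupling proteins known from brain, was low and measured 43.0, 27.7 and 39.4 normalised reads in the WT females and 61.2, 51.5 and 50.7 in the LCHADD females. The male libraries had 26.9, 39.5 and 25.9 in the WT males and 36.5, 45.8 and 55.8 in the LCHADD males. In females all LCHADD libraries were above WT, and in males the groups overlapped. Slc25a27 changed by 0.57 ± 0.17 in the mean (limma adjusted p = 0.016) and passed in neither sex. Slc25a14 and Slc25a30, further relatives, did not pass in the mean, at 0.37 ± 0.16 (adjusted p = 0.075) and -0.11 ± 0.12 (0.46).

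The window upstream of Ucp3 is shown for its repeated motif (RefSeq, GRCm38.p6, chr7:100472741-100472990, plus strand, 5′ to 3′). Capitals mark 2 copies of the nuclear receptor core site AGGTCA, at positions -149 and -44 counted from -1, the last base before the annotated start.
Ucp3: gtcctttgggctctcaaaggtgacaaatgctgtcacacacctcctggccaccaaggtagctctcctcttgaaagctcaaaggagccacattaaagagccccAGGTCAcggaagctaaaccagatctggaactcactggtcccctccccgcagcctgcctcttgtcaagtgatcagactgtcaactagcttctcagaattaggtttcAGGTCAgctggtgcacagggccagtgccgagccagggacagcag

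**Figure D3:**
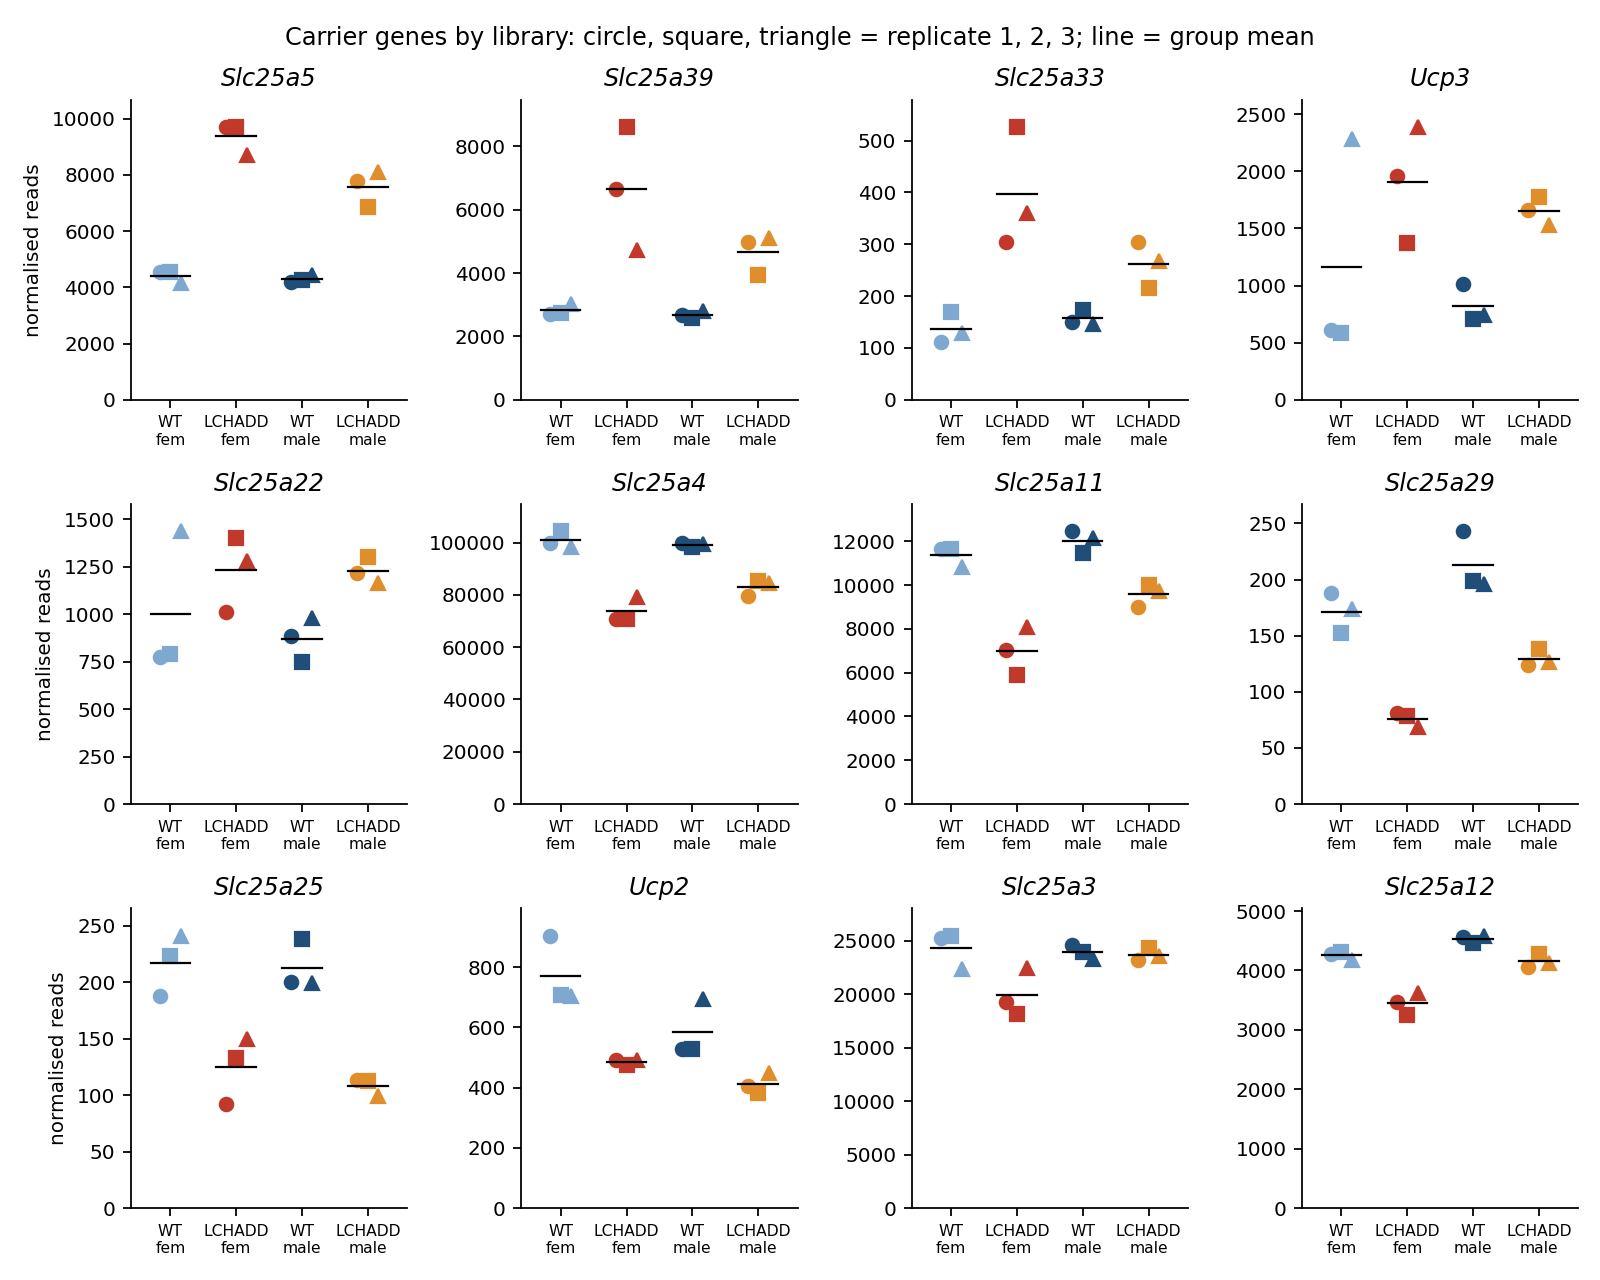
Normalised reads of 12 carrier genes in each of the 12 libraries, by group; symbols mark the replicate, lines the group mean, and every vertical axis starts at 0. Slc25a5, Slc25a39 and Slc25a33 are higher in all LCHADD libraries than in any WT library, WT female 3 is at 2286 for Ucp3, and Slc25a4 and Slc25a11 are lower in all LCHADD libraries.

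Among carriers whose cargo is debated or unknown 1 rose and 3 fell in the mean, of 7 tested, where 40.8% of all genes passed. Slc25a46, a carrier relative of the outer membrane that takes part in mitochondrial fission and lipid handling, measured 1460.2, 1273 and 1283 normalised reads in the WT females and 1598, 1661 and 1628 in the LCHADD females. The male libraries stood at 1417, 1493 and 1381 in the WT males and 1547, 1659 and 1636 in the LCHADD males. The 6 LCHADD libraries were above the 6 WT libraries, with the small mean change of 0.23 ± 0.05 (limma adjusted p = 0.0023). Slc25a46 passed in females (0.29, 0.0071) and not in males (0.17, 0.12). Slc25a35 measured 146, 116 and 94.1 normalised reads in the WT females and 77.6, 32.0 and 66.6 in the LCHADD females. In males it had 125, 104 and 121 in the WT males and 75.0, 95 and 64.9 in the LCHADD males. LCHADD was below WT within each sex, LCHADD female 2 lowest, and the mean change was -0.83 ± 0.19 (0.003). Slc25a35 passed in females (-1.08, 0.0069) and not in males (-0.58, 0.17). In males it did pass without LCHADD female 2 (0.028) and in a fit of the male libraries alone (0.023).

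Slc25a34, which was among the most abundant carriers per kilobase, changed by -0.41 ± 0.09 in the mean (limma adjusted p = 0.0028). WT female 3 was the highest library at 4974 normalised reads, and without it the change in females was -0.23 and did not pass (0.091). The female call was also lost without LCHADD female 1 (0.055) and in a fit of the female libraries alone (0.080). In males it did not pass (-0.39, 0.063), and it did without WT female 3 (0.0090) or without WT female 2, LCHADD female 2 or LCHADD female 3 (0.025 to 0.047). A fit of the male libraries alone called it as well (0.00076). Slc25a47, known from liver, changed by -0.40 ± 0.12 in the mean (limma adjusted p = 0.013). It passed in females (-0.64, 0.0078) and not in males (-0.16, 0.56), where the groups overlapped. Slc25a16, Slc25a45 and Slc25a53 did not pass, at -0.06, -0.08 and -0.35. Slc25a43, Slc25a48 and Slc25a54 failed the filter, and Slc25a41, Slc25a48 and Slc25a54 had no read in any library.

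The balance within 7 pairs of related carriers was tested by the log2 ratio of their values, which no scaling of a library can alter except through the added 1. Genotypes were permuted within each sex in an exact two-sided test over all 400 arrangements, in which the smallest possible p is 0.0050, and p-values were adjusted over the 7 pairs. Of 8 pairs listed, 7 had both genes past the filter. The pairs were listed with earlier results of these data known. Of the 7 pairs tested 5 passed. Slc25a36 and Slc25a40 changed by -0.01 in the mean, so their ratios mostly repeat the changes of Slc25a33 and Slc25a39. The ratio of Slc25a4 to Slc25a5 was 22.1 to 23.8 in WT, 7.30 to 9.12 in LCHADD females and 10.2 to 12.4 in LCHADD males, a log2 change of -1.31 (exact permutation test, adjusted p = 0.0117). WT libraries varied little in this ratio, with a mean of 23.0 ± 0.650 (SD, n = 6), against 9.47 ± 1.99 in LCHADD. The ratios of Mpc1 to Mpc2 and of Slc25a37 to Slc25a28 did not pass, with log2 changes of 0.18 (0.0525) and 0.14 (0.170). Mpc1 to Mpc2 passed without WT female 3, WT male 2 or LCHADD female 2 (0.023 to 0.042), and Slc25a37 to Slc25a28 without LCHADD female 2 (0.025).

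**Figure D4:**
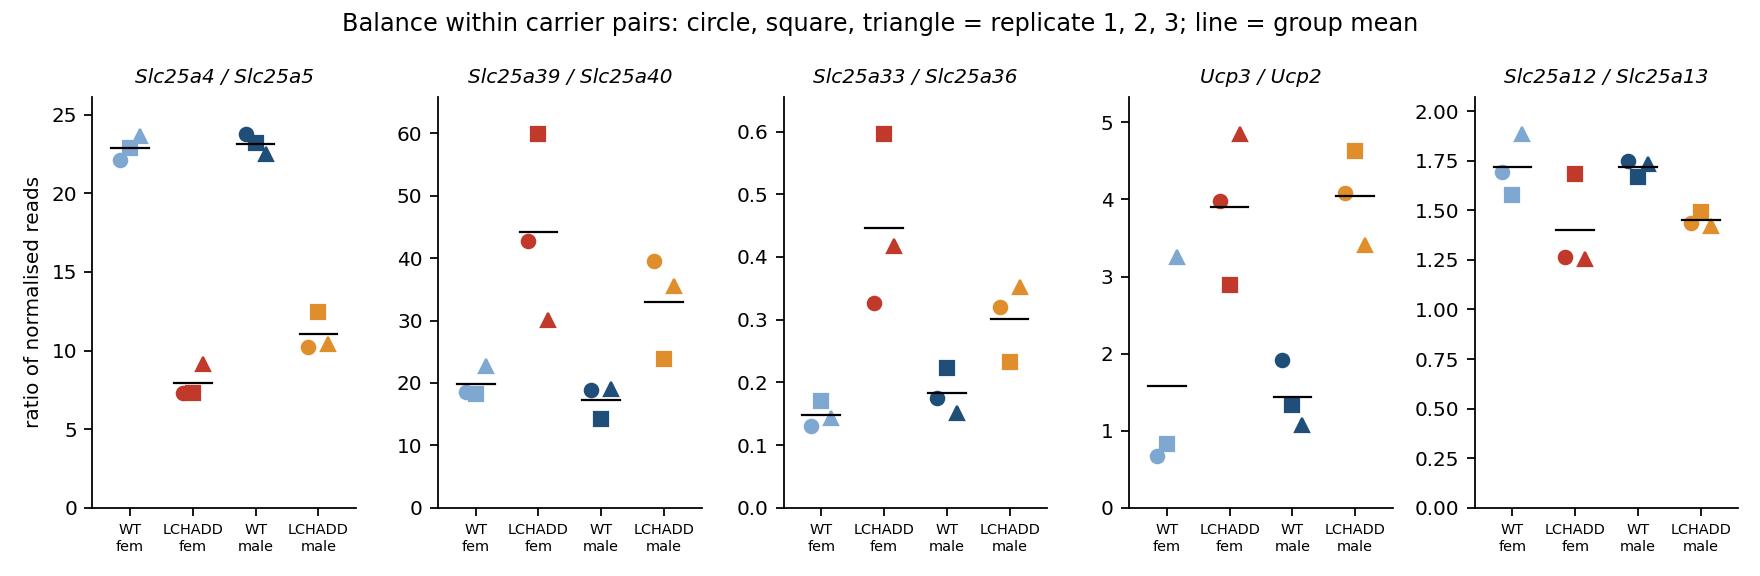
Ratio of normalised reads within the 5 carrier pairs that passed, in each library by group; symbols mark the replicate, lines the group mean, and axes start at 0. The ratio of Slc25a4 to Slc25a5 is 22.1 to 23.8 in WT and 7.30 to 12.4 in LCHADD, and WT female 3 is the WT library that overlaps LCHADD in the ratio of Ucp3 to Ucp2.

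The difference between the sexes in the genotype effect was tested as an interaction, female minus male. None of the 42 carriers passed by limma or edgeR, and none of the 23 that had an adjusted p by DESeq2. Over all genes limma called 1 (0.00721%), edgeR 2 and DESeq2 101. An unadjusted p under 0.05 by limma was found for 6 carriers and for 1363 genes in all (9.83%). Those 6 were Slc25a11, Slc25a33, Slc25a5, Slc25a29, Slc25a3 and Slc25a23, with differences of -0.38, 0.79, 0.26, -0.46, -0.27 and 0.28. The difference was the larger one in females for 24 of the 42 carriers and for 65.7% of all genes. Without LCHADD female 3 the interaction of Slc25a11 passed (-0.49, adjusted p = 0.041). Between WT females and WT males none of the 42 passed by limma, edgeR or DESeq2, where limma called 34 of all genes (0.245%), edgeR 47 and DESeq2 87. An unadjusted p under 0.05 was found for 5 carriers and for 1019 genes in all (7.35%), the carriers including Ucp2 (0.40, females minus males), Slc25a1 (0.52), Slc25a51 (-0.23) and Slc25a29 (-0.31).

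Carrier proteins reach the inner membrane through the outer membrane translocase, small chaperones of the intermembrane space and the carrier translocase of the inner membrane. Of 13 genes of this route and of outer membrane channels, 8 rose and 1 fell in the mean by limma, with 7 higher and 1 lower in females and 4 higher in males. The shares of all genes that passed were 40.8% in the mean, 33.8% in females and 15.5% in males, and the list was not tested against them. Timm10, a chaperone of the intermembrane space, rose from 814 ± 36.4 to 1349 ± 239 normalised reads (SD, n = 6 each; log2 change 0.71 ± 0.07, adjusted p = 2.6e-06). Tomm20, a receptor of the outer membrane, rose by 0.50 (6.5e-05), and Vdac3, an outer membrane channel, by 0.37 (7.6e-05). The gene that fell was Timm29, a subunit of the inner membrane carrier translocase, at -0.29 (adjusted p = 0.0023), and it was named after its value was seen.

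RefSeq windows of 250 bases were matched for 33 of the 42 carriers, with 43 windows in all because some genes have several starts. No carrier window held TGATGNAA or TNAAGGTCA, which stand in 3.45% and 1.14% of all 32851 windows, and none held GCATGCGC, which stands in 2.26%. AGGTCA stood in 6 carrier windows, of Mpc1, Slc25a34, Slc25a39, Slc25a45, Slc25a47 and Ucp3, which is 14.0% of them and 14.0% of all windows. CACGTG stood in 7 carrier windows, or 16.3%, against 6.02% of all windows. These belonged to Slc25a1, Slc25a13, Slc25a14, Slc25a15, Slc25a33 and Slc25a36, of which only Slc25a33 passed in the mean of both sexes. Overlapping windows of Slc25a14 hold the same E-box, at -54 and at -184 from their starts, and each window is counted. A match describes the letters in the window and not binding.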

How the data were processed

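RNA sequencing of mouse ventricle gave 1 deposited table with 12 libraries, 3 in each of 4 groups of genotype and sex taken from the sample titles. The deposited values are a signal: for each Ensembl gene ID, the authors' reads over a size factor of the library. The tools named per the submitters' processing notes are bcl2fastq and DESeq2, and the genome build is GRCm39. Aligner, counter, annotation and strandedness of counting: not given in the sources used here. Dividing each library's values by its smallest step gave whole numbers, to a tolerance of 0.01, for 100% of the values, and these reads served the count tests. Of 51912 IDs 51719 were matched to a symbol through the GENCODE M21 annotation and gene name tables, which are of an earlier build, and exon lengths, chromosomes and overlapping genes were taken from that annotation. A non-coding row with a carrier name was left out. Of the tested carriers 1 is counted but its own values are not reported here.

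Genes with a value of at least 10 in at least 3 libraries were tested with limma 3.58.1 (R 4.3.3) on log2(value + 1), with 4 group means, a trended prior and Benjamini-Hochberg adjustment over 13865 genes. A fold change on this scale understates the change of low genes. The script was tested on simulated data. Pairs were tested by exact permutation within sex. Values were given in full for carriers that passed in the mean of both sexes and were among the 8 largest rises or falls, and for Slc25a3, Slc25a4, Slc25a5, Slc25a12, Slc25a13, Mpc1, Mpc2 and the Ucp genes, and genes of other lists by counts with at most 3 examples. The members and lists were chosen with earlier results of these data known. The last 3 promoter motifs were added after the first 2 had no match. The alternatives tried were log2(value + 5) and log2(value + 0.5), a filter at 50 or none, TMM scaling, scaling by nuclear reads, edgeR 4.0.16 and DESeq2 1.42.0 on recovered reads, a replicate block, fits of the compared groups alone and the leaving out of libraries. Libraries of equal replicate number did not deviate together. No pair of libraries agreed within sampling noise.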

Additional observations from a re-analysis of the deposited data

How the results depend on the processing

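Of the 42 carriers, 14 to 18 passed in females and 19 to 22 in the mean of both sexes under all alternatives run, against 17 and 21. In males, against 10, the count was 17 when LCHADD female 2 and WT female 3 were left out together. With each sex fitted alone, 17 carriers passed in males and 14 in females. Of all genes, 3342 passed in males and 3436 in females in these fits. Leaving out single libraries gave 6 to 16 in males: 6 without WT male 1, WT male 3 or LCHADD male 1, and 16 without LCHADD female 2. The same leave-outs gave 0 to 1 carriers for the interaction, the 1 being Slc25a11 without LCHADD female 3. The comparison of WT females with WT males gave 0 throughout. Of the 7 pairs, 5 to 7 passed, against 5. No change that had passed reversed its sign. The male changes stayed the same where only female libraries were left out, such as 1.03 for Ucp3, while the jointly estimated spread differed. The cause of the shifts in the counts was not tested, and fits without a library rest on fewer libraries.

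With a replicate block 18 carriers passed in females, 9 in males, 20 in the mean and 0 in the other comparisons. The numbers are only names here: deviations of libraries of 1 number correlated at -0.05 to 0.03. The median change of all genes was -0.01 to 0.06 in the 3 genotype comparisons under every scaling, and scaling by nuclear reads called 18, 10 and 21 carriers. The 3 libraries of a group, and reads of low carriers such as Slc25a53, limit what could be detected.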
